A study of Homo sapiens with 4 samples.

Results

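The transcripts of 9 genes of antigen presentation by major histocompatibility complex (MHC) class I were followed in AGS cells, an established human gastric adenocarcinoma line: HLA-B, HLA-C, HLA-E, B2M, TAP1, TAP2, PSMB8, PSMB9 and PSMB10. They were taken by name from tables of 51103 genes, and each name had 1 row. The FGF2 group had received recombinant human fibroblast growth factor 2 at 20 ng/mL for 24 h before polyadenylated RNA was sequenced. The comparison group carries only the abbreviation NC, and its protocol text describes FGF2 addition too, which leaves its own treatment unstated. Both groups have 2 libraries. In each, almost no gene had fewer counts in library 2 than in library 1, as if the reads of library 1 were part of library 2, so the 2 libraries were treated as a single sample (n = 1 per group). The differences below therefore have no replicate check and no p-values.

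Class I molecules show peptides from inside the cell to CD8 T cells. The proteasome cuts proteins into peptides, and in cells exposed to interferon its 3 catalytic subunits PSMB6, PSMB7 and PSMB5 are replaced in newly built particles by PSMB9, PSMB10 and PSMB8, which gives the immunoproteasome. The transporter made of TAP1 and TAP2 carries peptides into the endoplasmic reticulum, where they are loaded onto a heavy chain (such as those of HLA-B, HLA-C and HLA-E) paired with the light chain B2M. Most of these genes are known to respond to interferon and, in part, to NF-kB, and NLRC5 is known as an activator of class I promoters.

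The promoters of 8 of the 9 genes matched a RefSeq table of windows reaching from 250 bases before to 50 bases after a start (GRCh38.p14, 10 windows), while HLA-E did not. They are shown because the members differed in how their transcripts stood between the groups, and the sequences let the shared and unshared elements be read. Capitals mark matches on either strand to an interferon response motif (GAAA, then any 2 bases, then GAAA again), to the NF-kB consensus, or to GATTGG, the core of the Y box of class I promoters. Every stretch is written 5′ to 3′ along its gene. The stretch of HLA-B lies at chr6:31357210-31357369 on the minus strand, that of HLA-C at chr6:31272123-31272282 (minus), that of B2M at chr15:44711357-44711486 (plus), that of TAP1 at chr6:32853755-32853854 (minus), that of PSMB9 at chr6:32854042-32854191 (plus), that of TAP2 at chr6:32838770-32838839 (minus), that of PSMB8 at chr6:32844028-32844107 (minus) and that of PSMB10 at chr16:67936851-67936910 (minus).
HLA-B: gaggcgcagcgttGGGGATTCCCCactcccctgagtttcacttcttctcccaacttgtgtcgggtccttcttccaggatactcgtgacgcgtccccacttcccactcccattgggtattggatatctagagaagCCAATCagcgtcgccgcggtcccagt
HLA-C: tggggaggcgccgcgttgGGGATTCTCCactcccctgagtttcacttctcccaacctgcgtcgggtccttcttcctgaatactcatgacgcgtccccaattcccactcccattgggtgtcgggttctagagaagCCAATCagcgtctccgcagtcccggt
B2M: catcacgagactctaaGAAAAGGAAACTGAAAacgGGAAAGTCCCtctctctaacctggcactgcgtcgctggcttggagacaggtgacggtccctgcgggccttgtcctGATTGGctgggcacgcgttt
TAP1: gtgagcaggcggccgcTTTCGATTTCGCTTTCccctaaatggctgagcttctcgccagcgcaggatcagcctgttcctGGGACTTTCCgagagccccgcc
PSMB9: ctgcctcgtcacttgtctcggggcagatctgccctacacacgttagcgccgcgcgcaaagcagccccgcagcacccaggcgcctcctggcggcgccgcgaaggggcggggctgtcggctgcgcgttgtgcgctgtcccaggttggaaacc
TAP2: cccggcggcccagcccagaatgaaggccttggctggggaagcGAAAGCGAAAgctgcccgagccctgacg
PSMB8: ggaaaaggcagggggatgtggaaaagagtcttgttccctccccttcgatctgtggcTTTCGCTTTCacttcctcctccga
PSMB10: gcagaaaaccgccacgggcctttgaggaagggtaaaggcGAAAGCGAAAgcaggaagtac

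Over the 250 bases before their starts, HLA-B and HLA-C were identical at 91.9% of aligned positions (226 identical, 20 different, 8 in gaps). Both held an NF-kB match and a Y box core but no match to the interferon response motif as spelled here. B2M held all 3 motifs, with 2 overlapping copies of the interferon response motif, and an NF-kB match that begins 3 bases after the second of them. TAP1 had 2 overlapping copies of the interferon response motif and an NF-kB match in the stretch shown, and TAP2, PSMB8 (in the second of its 2 windows) and PSMB10 had 1 copy of it each. PSMB9, whose start lies 487 bases from that of TAP1 on the other strand, had none of the 3 in its own window. In the table as a whole 3.57% of 35116 windows held the interferon response motif, 5.91% the NF-kB consensus and 15.13% GATTGG. TTCNNNGAA, the core of the GAS element of interferon gamma signalling, was found among the member windows only in the second of TAP1 and the second of PSMB8, and in 7.66% of all windows. A match is a run of letters and was not tested as a binding site. An element with other letters is missed, so the lack of a match does not mean that a promoter lacks the element.

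The libraries held 13790335 and 27598608 counts in the FGF2 group and 14073340 and 27325697 in the NC group. Levels are the deposited FPKM, which divide counts by gene length and library total. That length was the merged exons of the gene model for 99.5% of the genes compared. Fold changes compare library 2 of each group after TMM (trimmed mean of M values) scaling, with a 95% interval for counting error only. Library 1 and the remainder of library 2 (library 2 less library 1) share no reads and served as 2 read sets for each group. The read sets of a group differed by more than counting error, so the intervals are too narrow even within a group. Where both libraries of a group are said below to lie on one side of the other group, this is not agreement of replicates. A gene was called if its levels in the 2 FGF2 read sets were 1.5-fold or more beyond those in both NC sets. Calls were made for the 11000 genes that averaged 50 counts or more in a read set. Of 14 measured genes known to respond to FGF and ERK signalling, 13 were called higher, among them SPRY4, a feedback inhibitor, at a log2 fold change of 3.33 (3.05 to 3.62), and EGR1 was lower at 1.2-fold. Over all 11000 genes, 3.06% were called higher. The 8 epithelial markers summed to 438.6 to 444.6 FPKM in the FGF2 and 487.3 to 494.5 FPKM in the NC libraries, nearly all of it KRT8, KRT18 and KRT19. These did not stand alike, with KRT8 at 190.6 to 193.6 FPKM against 264.9 to 270.3 FPKM, KRT18 at 199.1 to 201.2 FPKM against 193 to 193.5 FPKM and KRT19 at 47.6 to 48.5 FPKM against 25.4 to 27.3 FPKM. The others were low, with ELF3 at 0.166 to 0.171 FPKM against 1.62 to 1.80 FPKM, EPCAM at 0.518 to 0.576 FPKM against 0.846 to 1.19 FPKM and CDH1 at 0.0235 to 0.0352 FPKM against 0.118 to 0.196 FPKM. The 8 markers of gastric mucosa summed to at most 0.355 FPKM. The 15 blood and immune markers, which include those of professional antigen presenting cells, summed to 0.586 to 1.16 FPKM in the FGF2 and 1.43 to 1.51 FPKM in the NC libraries. Most of it was CD14, at 0.384 and 0.884 FPKM against 1.05 and 1.01 FPKM. CD3E, CD68, LYZ and HLA-DRA were among those at 0 in all 4. The 10 fibroblast markers summed to 83.8 to 84.3 FPKM against 141.4 to 144.6 FPKM, mostly COL1A1 in both groups. PDGFRB stood at 5.96 to 6.29 FPKM against 21.0 to 21.6 FPKM and THY1 at 18.0 to 18.2 FPKM against 18.1 to 18.9 FPKM. The other fibroblast markers were below 1 FPKM, with COL1A2 and FAP at 0 in all 4 libraries. The part of these cell type markers in the results below was not tested. In bulk RNA, fewer cells that carry a transcript and less of it per cell cannot be told apart.

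Of the 9 members, 8 met the count minimum, and 2 of these were called lower in the FGF2 sample at 1.5-fold, HLA-B and PSMB9. Over all 11000 genes the share called lower was 5.42%. None of the 8 was called higher, where the share over all genes was 3.06%. At a bound of 1.2-fold, HLA-C and PSMB8 joined them, so that 4 of 8 were called lower and 0 higher, against 13.8% and 12.2% of all genes. At 2-fold PSMB9 alone was called (1.66% of all genes lower and 1.07% higher). PSMB10, with a mean of 49.25 counts per read set, was just short of the count minimum and has values but no call. The median log2 fold change was -0.47 over the 8 members and -0.50 over all 9, beside 0.02 over the 11000 genes. A list of 8 genes is short, and these counts are a description of 2 samples.

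**Figure D1:**
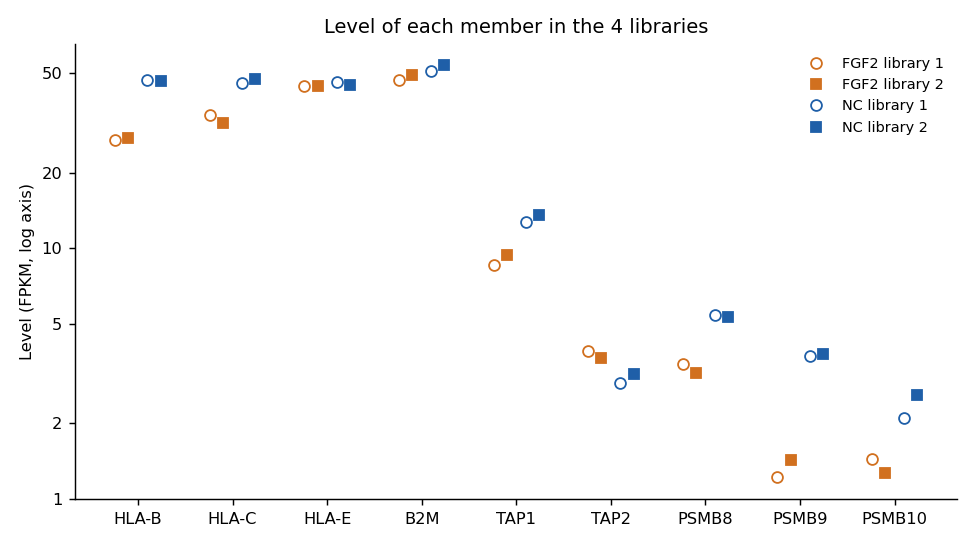
Level of each member in the 4 libraries, in FPKM on a log axis, with open circles for library 1 and filled squares for library 2 (orange FGF2, blue NC). The FGF2 points lie below the NC points for HLA-B, HLA-C, TAP1 and the 3 immunoproteasome subunits, lie close to them for HLA-E and B2M, and lie above them for TAP2.

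The heavy chain genes did not stand alike. HLA-B (ENSG00000234745, GRCh38 chromosome 6, 31269491 to 31357188, minus strand) had 1138 and 2315 counts under FGF2 and 2021 and 3868 under NC. In FPKM these were 27.0 and 27.5 against 47.1 and 46.4, so both FGF2 values lay well below both NC values. Its log2 fold change was -0.67 (-0.75 to -0.60), a 1.60-fold lower level, and the read sets gave -0.72 (library 1) and -0.64 (the other reads). HLA-C (ENSG00000204525, chromosome 6, 31268749 to 31272130, minus strand) stood at 34.1 and 31.8 FPKM against 45.9 and 47.4 FPKM. The groups did not overlap, but the log2 fold change of -0.50 (-0.58 to -0.42) was -0.35 in library 1 against -0.66 in the remaining reads. HLA-C was therefore called at 1.2-fold only.

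HLA-E (ENSG00000204592, chromosome 6, 30489467 to 30494205, plus strand), a non-classical heavy chain recognised by natural killer cells, stood at 44.3 and 44.5 FPKM in the FGF2 libraries and at 46.0 and 45.0 FPKM in the NC libraries. The scaled difference was 0.06 (-0.00 to 0.13) and met no bound. The difference between the heavy chains can be read within a library, where no scaling enters. The ratio of HLA-B to HLA-E counts changed by -0.74 on the log2 scale (-0.84 to -0.64), with -0.75 in library 1 and -0.73 in the remaining reads. The ratio of HLA-C to HLA-B counts changed by 0.18 (0.07 to 0.29), but by 0.37 in library 1 and by -0.03 in the remaining reads, so the read sets do not give one direction for it.

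B2M (ENSG00000166710, chromosome 15, 44711487 to 44718877, plus strand), the light chain that every class I heavy chain needs, had 3944 and 8221 counts against 4364 and 8996. Its levels were 47.0 and 49.0 FPKM against 51.0 and 54.2 FPKM. The FGF2 values lay below the NC values in FPKM, but the scaled log2 fold change was only -0.06 (-0.11 to -0.02) and met no bound. The ratio of HLA-B to B2M counts changed by -0.61 (-0.70 to -0.52). B2M, whose promoter stretch holds all 3 motifs marked in capitals, stood between the quartiles of all genes, which were -0.21 and 0.22. The HLA genes are near-identical in places, so their reads can be assigned to a relative or dropped, and HLA-B also shares 17.8% of its exon bases with a pseudogene on the opposite strand that had 0 counts. The values of the heavy chains are uncertain for that reason.

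**Figure D2:**
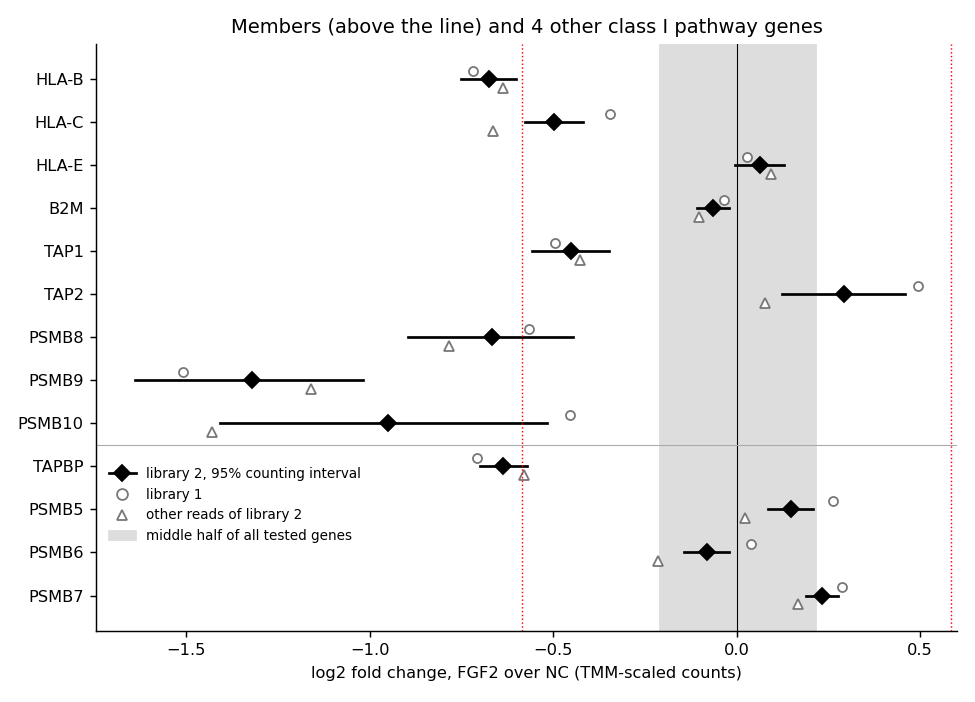
Log2 fold change, FGF2 over NC, of the 9 members and of 4 other class I pathway genes. Diamonds and bars are library 2 with its 95% counting interval, open symbols are the disjoint read sets, dotted lines mark 1.5-fold and the grey band is the range between the quartiles of 11000 genes (-0.21 to 0.22). HLA-E and B2M lie in the band, HLA-B, PSMB8, PSMB9 and TAPBP lie left of it, and the read sets of HLA-C, TAP2 and PSMB10 lie far apart.

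Neither transporter subunit met a bound. TAP1 (ENSG00000168394, chromosome 6, 32845209 to 32853978, minus strand) had 568 and 1247 counts against 865 and 1785, or 8.57 and 9.40 FPKM against 12.8 and 13.6 FPKM. The groups did not overlap and the log2 fold change was -0.45 (-0.56 to -0.35), but the nearest read sets differed by 1.19-fold, just short of the 1.2-fold bound. TAP2 (ENSG00000204267, chromosome 6, 32821833 to 32838780, minus strand) stood at 3.88 and 3.64 FPKM against 2.91 and 3.14 FPKM. Its log2 fold change was 0.29 (0.13 to 0.46), with 0.50 in library 1 against only 0.08 in the remaining reads, so it met no bound. The ratio of TAP1 to TAP2 counts changed by -0.74 (-0.94 to -0.55), from -0.99 in library 1 to -0.50 in the other reads. TAP2 shares 32.3% of its exon bases with another protein-coding gene model on the same strand that had 0 counts, and TAP1 shares 9.5% with an antisense RNA, so both levels are uncertain.

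All 3 immunoproteasome subunits stood lower in the FGF2 sample, by unequal amounts and at low levels. PSMB9 (ENSG00000240065, chromosome 6, 32844136 to 32859585, plus strand) had 52 and 121 counts against 161 and 317, or 1.23 and 1.43 FPKM against 3.72 and 3.78 FPKM. Both FGF2 values lay far below both NC values. Its log2 fold change of -1.32 (-1.64 to -1.02) was the lowest of the 9 members in library 2 as a whole and in library 1, though not in the remaining reads, where PSMB10 was lower. It is a 2.50-fold lower level, with -1.51 in library 1 against -1.16 in the remaining reads. PSMB8 (ENSG00000204264, chromosome 6, 32840717 to 32844703, minus strand) had 143 and 262 counts against 229 and 436, or 3.46 and 3.17 FPKM against 5.43 and 5.32 FPKM. Its log2 fold change was -0.67 (-0.90 to -0.44) and its nearest read sets differed by 1.42-fold, between the 2 bounds. PSMB10 (ENSG00000205220, chromosome 16, 67934502 to 67937087, minus strand) had 37 and 65 counts against 55 and 132. That is 1.45 and 1.27 FPKM against 2.11 and 2.61 FPKM, and a log2 fold change of -0.95 (-1.41 to -0.52) that was -0.45 in library 1 against -1.43 in the remaining reads. Its 2 read sets thus lay just outside either end of that interval. PSMB10 shares 34.8% of its exon bases with another gene model on the same strand, which had 27 and 71 counts against 29 and 69. The values of PSMB10 are uncertain for that reason. PSMB8 shares 20.6% with genes on the opposite strand and PSMB9 5.7% with its neighbours.

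**Figure D3:**
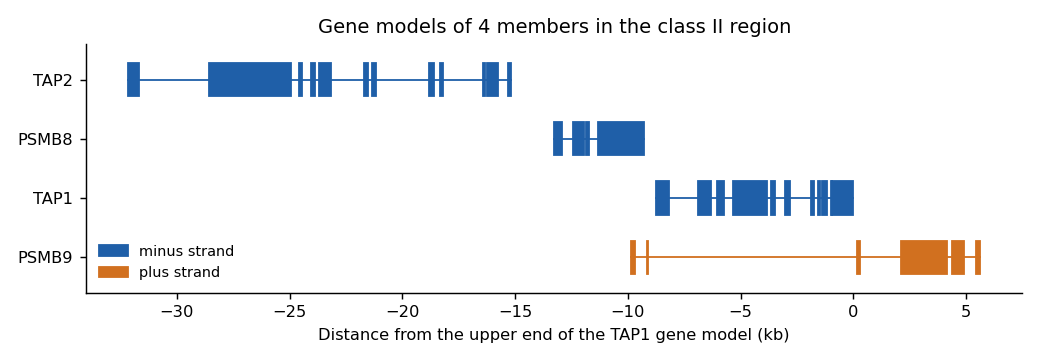
Gene models of TAP2, PSMB8, TAP1 and PSMB9 (boxes are merged exons of GENCODE v29), by distance in kb from the upper end of the TAP1 model. PSMB9 begins inside the PSMB8 model near the start of PSMB8 and runs on the plus strand across TAP1. Its main exons lie on the far side of the TAP1 start.

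PSMB9 and TAP1 start near each other on opposite strands, and the difference was not of equal size on the 2 sides. The ratio of PSMB9 to TAP1 counts changed by -0.87 (-1.20 to -0.55), with -1.02 in library 1 against -0.74 in the remaining reads. The interferon response and NF-kB matches printed for TAP1 lie between the RefSeq starts of the 2 genes.

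Each immunoproteasome subunit was set against the constitutive subunit it replaces, within each library. The constitutive genes met no bound, with log2 fold changes of 0.15 (0.09 to 0.21) for PSMB5, -0.08 (-0.14 to -0.02) for PSMB6 and 0.23 (0.19 to 0.28) for PSMB7. They were also far more abundant per length: in NC library 2, PSMB5 stood 16.4-fold above PSMB8, PSMB6 31.2-fold above PSMB9 and PSMB7 63.8-fold above PSMB10. In FGF2 library 2 these distances were 28.9-fold, 73.8-fold and 145.5-fold. PSMB8 thus made up 3.54% and 3.35% of the FPKM of its pair in the FGF2 libraries and 6.12% and 5.75% in the NC libraries. PSMB9 made up 1.11% and 1.34% against 3.19% and 3.10%, and PSMB10 0.756% and 0.683% against 1.26% and 1.54%. In all 3 pairs both FGF2 shares lay below both NC shares, but the libraries of a group share reads, so this is not agreement of replicates. On the log2 scale the ratio changed by -0.82 (-1.05 to -0.58) for PSMB8 to PSMB5, by -1.24 (-1.56 to -0.93) for PSMB9 to PSMB6 and by -1.19 (-1.64 to -0.75) for PSMB10 to PSMB7. The read sets gave close values for PSMB8 to PSMB5, -0.83 in library 1 and -0.81 in the remaining reads. They were farther apart for PSMB9 to PSMB6 (-1.56 and -0.95) and for PSMB10 to PSMB7 (-0.75 and -1.61). The 3 immunoproteasome genes together held 1.53% and 1.51% of the FPKM of all 6 genes in the FGF2 libraries and 3.03% and 3.05% in the NC libraries. Distances and shares between genes depend on the merged exon length that FPKM divides by. It was 2997 bases for PSMB8 and 1765 for PSMB5, 3072 for PSMB9 and 1448 for PSMB6, and 1853 for PSMB10 and 1787 for PSMB7. In NC library 2 the counts were 436 beside 4208, 317 beside 4663 and 132 beside 8127 for these pairs.

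**Figure D4:**
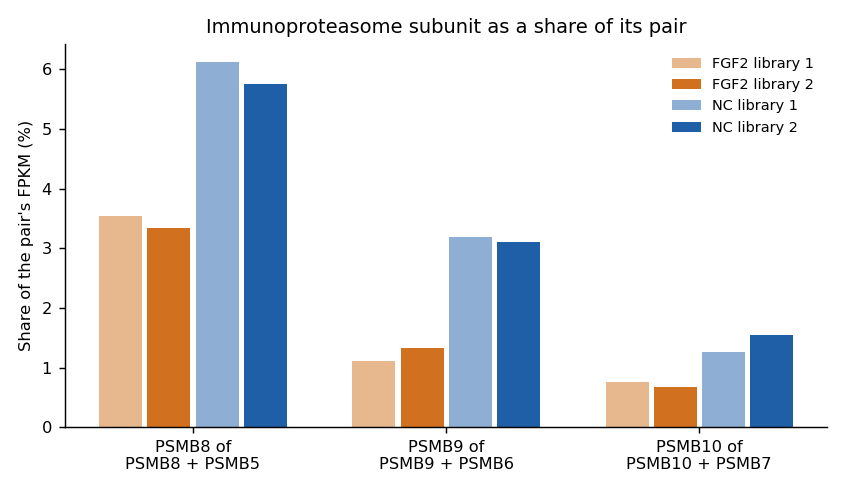
FPKM of each immunoproteasome subunit as a percentage of the FPKM of itself and its constitutive counterpart, for each library. In every pair both FGF2 bars (orange) are lower than both NC bars (blue), and no share exceeds 6.12%.

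By level per length, the members formed 3 tiers that were the same in both groups. B2M, HLA-E, HLA-C and HLA-B lay between 27.0 and 54.2 FPKM, TAP1 between 8.57 and 13.6 FPKM, and TAP2, PSMB8, PSMB9 and PSMB10 between 1.23 and 5.43 FPKM. B2M had the highest FPKM of the 9 in all 4 libraries. Tiers and order depend on the merged exon length of each gene, for instance 6079 bases for B2M and 2507 for HLA-C. In the NC libraries HLA-C, HLA-B and HLA-E followed within 45.0 to 47.4 FPKM, and the values of HLA-C over the libraries overlapped those of both others. In the FGF2 libraries the order was HLA-E, HLA-C and HLA-B, with no overlap between neighbours. At the lower end TAP2 stood below PSMB8 and PSMB9 in the NC libraries and above them in the FGF2 libraries. PSMB9 and PSMB10 could not be ordered in the FGF2 libraries, where their values overlapped. The libraries of a group share reads, so the spread between them understates error.

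The other genes of the pathway were described list by list. Beside every list stand the shares over all 11000 genes, 5.42% lower and 3.06% higher at 1.5-fold. At 1.2-fold these were 13.8% and 12.2%. Among 15 genes of peptide loading and trimming, 1 was called lower at 1.5-fold and 0 higher, and the list median was 0.05. The gene called was TAPBPL, which encodes a peptide editor related to tapasin, with 24 and 55 counts against 82 and 154 and a log2 fold change of -1.41 (-1.89 to -0.97). TAPBP, which encodes tapasin, the bridge between the transporter and the heavy chain, stood at 20.7 and 22.4 FPKM against 35.8 and 36.7 FPKM. Its log2 fold change was -0.64 (-0.70 to -0.57), called at 1.2-fold. At that bound 3 of the 15 were lower (TAPBP, TAPBPL and SPPL2A) and 1 higher (BCAP31). The general chaperones met no bound, with CALR at -0.14 (-0.17 to -0.11), CANX at 0.21 (0.19 to 0.23) and PDIA3 at 0.11 (0.08 to 0.15). The trimming peptidases ERAP1, at -0.28 (-0.40 to -0.15), and ERAP2, at -0.09 (-0.26 to 0.08), met none either.

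**Figure D5:**
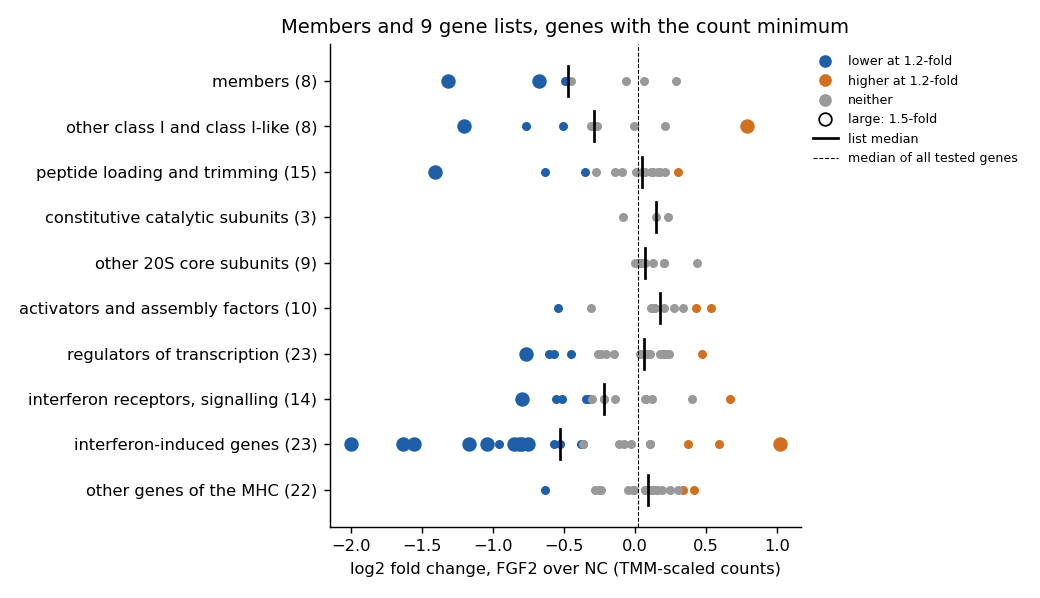
Log2 fold change, FGF2 over NC, of the members and of 9 lists, 1 point a gene with the count minimum (number in brackets). Blue and orange mark genes lower or higher at 1.2-fold, large points those called at 1.5-fold, black ticks list medians and the dashed line the median of 11000 genes. The members' median of -0.47 and that of the interferon-induced genes, at -0.53, lie left of the other list medians, and the lists of proteasome core subunits hold no coloured point.

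Most of the other proteasome genes measured met no bound. Of 9 other core subunits with the count minimum, 0 met either bound and the median was 0.07. Of 10 activators and assembly factors 0 were called at 1.5-fold. At 1.2-fold PSME1, a subunit of the interferon-inducible activator cap, was lower at 44.5 and 44.0 FPKM against 63.5 and 67.7 FPKM (-0.54, -0.62 to -0.46). Its partner PSME2 stood at -0.31 (-0.40 to -0.22) and met no bound. The assembly factors called higher at 1.2-fold were POMP, at 0.54 (0.46 to 0.62), and PSMG1, at 0.43 (0.35 to 0.51). These 3 of 10 stand beside 13.8% of all genes lower and 12.2% higher at that bound. POMP is known to help immunoproteasomes assemble as well as constitutive ones.

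Class I-like genes differed among themselves. Of 15, 8 had the count minimum, 1 was called lower and 1 higher, and the median was -0.29. Over all genes 5.42% were called lower and 3.06% higher. MR1, which presents microbial vitamin metabolites, was lower at 0.349 and 0.345 FPKM against 0.897 and 0.842 FPKM (-1.20, -1.58 to -0.84). ULBP2, a ligand of the NKG2D receptor of natural killer cells, was higher at 16.2 and 16.6 FPKM against 9.69 and 10.2 FPKM (0.79, 0.60 to 0.98). MICA and MICB, ligands of the same receptor, stood at -0.27 (-0.39 to -0.15) and -0.31 (-0.42 to -0.20), with no call. At 1.2-fold HFE and FCGRT were also lower, beside 13.8% of all genes. In a list of 22 measured genes of the MHC, chosen by name and not a full set of that region, 0 were called at 1.5-fold, and at 1.2-fold TAPBP was lower and WDR46 and RGL2 higher, with a median of 0.09. IER3, which lies next to FLOT1 of that list and was counted with the FGF response genes, was called higher at 1.5-fold, at 1.13.

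Regulators of class I transcription were mostly between the bounds. Of 23 measured, 1 was called lower and 0 higher at 1.5-fold, and 4 lower and 1 higher at 1.2-fold, with a median of 0.07. Over all genes the shares were 5.42% and 3.06% at 1.5-fold, and 13.8% and 12.2% at 1.2-fold. The call at 1.5-fold was IRF2, a factor that binds interferon response elements, at 2.93 and 3.13 FPKM against 5.36 and 5.65 FPKM (-0.77, -0.99 to -0.55). NLRC5 had 197 and 441 counts against 341 and 685, a log2 fold change of -0.57 (-0.75 to -0.39), and was lower at 1.2-fold, as were NFYB and NFKB2. NFYA, which with NFYB binds the Y box, was higher at 1.2-fold, at 0.47 (0.36 to 0.59) beside -0.60 (-0.73 to -0.48) for NFYB. IRF1, an activator of class I genes, stood at 2.18 and 2.28 FPKM against 2.31 and 2.23 FPKM (0.11, -0.08 to 0.29), so its groups overlapped.

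Interferon transcripts were hardly detected. Of 9 interferon genes, 8 had 0 counts in every library, which allows up to 3 counts in each, and IFNE had 5 and 10 counts in the FGF2 and 0 in the NC libraries. Of 14 genes of interferon receptors and signalling, 1 was called lower at 1.5-fold, IRF7, at 2.43 and 2.61 FPKM against 4.81 and 4.79 FPKM (-0.80, -1.06 to -0.54). At 1.2-fold 5 were lower (IFNGR1, IFNLR1, TYK2, STAT2 and IRF7) and 1 higher (SOCS3, an inhibitor of JAK kinases), with a median of -0.22. The shares over all genes at that bound were 13.8% lower and 12.2% higher. IFNGR1, a chain of the interferon gamma receptor, stood at -0.35 (-0.50 to -0.20) and JAK1, with no call, at -0.22 (-0.29 to -0.16). Among 23 interferon-induced genes outside antigen presentation, 9 were called lower and 1 (GBP3) higher at 1.5-fold, with a median of -0.53. Over all 11000 genes 5.42% were called lower and 3.06% higher at 1.5-fold. The largest differences were those of MX1 (45 counts against 190 in library 2), GBP1 (-1.63, -1.88 to -1.40), APOL6 (-1.56, -1.90 to -1.24) and IFI6 (-1.17, -1.46 to -0.90).

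MHC class II transcripts were hardly detected. Of 13 genes 0 had the count minimum and 8 had 0 counts in all 4 libraries, among them HLA-DRA and HLA-DRB1. CIITA, the activator of class II genes, had 21 and 41 counts against 17 and 38, and CD74, the class II chaperone, had 5 and 11 against 6 and 16. TAP2, PSMB8, TAP1 and PSMB9 lie within the class II region. Of the class II genes there, HLA-DOB had 0 counts in every library and HLA-DMA had 4 and 9 counts against 11 and 19, while BRD2, a chromatin reader encoded in the same region, stood at 34.0 and 35.4 FPKM against 32.3 and 31.5 FPKM.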

How the data were processed

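Poly(A) RNA libraries of AGS cells were described in 2 groups, FGF2 and NC, with 2 libraries each. The authors deposited gene tables with raw counts and FPKM values. Per the submitters' processing notes, HISAT2 and HTSeq 0.13.5 were used with GRCh38, and the roles and settings are not given in the sources used here. Per the labels' protocols the library kit was one that does not mark strand, so reads of a gene and of an antisense partner cannot be told apart. All 51103 gene IDs were found in GENCODE version 29, from which gene positions were taken.

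The libraries of a group were not independent. Of 22043 genes, 2 had a higher count in FGF2 library 1 than in library 2, and 2 of 22485 in the NC group, although 1192 and 1214 would be expected from separate libraries of these depths. The counts of library 1 were therefore subtracted from those of library 2 to give disjoint read sets (13808282 further counts for FGF2 and 13252368 for NC), each pair was counted as 1 sample, and no test was run. A mean chi-square per gene between the 2 read sets of a group is near 1 if they differ by counting error alone. It was 2.4 (FGF2) and 2.45 (NC) for genes in a lower range of counts, and 6.29 and 4.6 for genes above it. The read sets thus differed by more than counting error, and whether they share a preparation is not known. The intervals reflect counting error alone, so they are too narrow within a group and understate the error between cultures.

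From the counts, TMM factors (edgeR 4.0.16, over 14043 genes kept by filterByExpr) and log2 ratios with a pseudocount of 0.5 were computed, with exact Clopper-Pearson 95% intervals (scipy 1.17.1). Ratios between genes are conditional odds ratios with exact intervals. Genes at 0 were set against a floor of 3 counts per library. The calling script was tested on simulated data that held counting error only. That test does not cover the wider spread between the read sets here. The members, lists and markers were chosen with earlier results of these data known. Text names all members, the class I genes listed beside them, and up to 4 genes per list with the largest called change. Genes called only at 1.2-fold, the pairs of genes set against each other outside the proteasome, and the promoter motifs were chosen after values were seen. Alternatives were library 1 alone, the other reads alone, leaving out each library, other scalings, another pseudocount, no count minimum and other fold bounds. Promoters are from RefSeq (GRCh38.p14). Some genes are not reported here by name.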

Additional observations from a re-analysis of the deposited data

How the results depend on the processing

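Between 2 and 3 members were called lower at 1.5-fold when each library was left out in turn, PSMB8 being the one added without FGF2 replicate 1 (also with scaling by total count, 3). With the other reads of library 2 alone, 4 were called (HLA-B, HLA-C, PSMB8 and PSMB9), at a bound of 1.2-fold 4, and at 2-fold 1 (PSMB9). None was called higher in any of these settings. Over all genes, 596 were called lower and 337 higher, against 985 and 628 from library 1 alone, 1027 and 678 from the other reads alone, 1057 and 508 with no count minimum, 722 and 267 with scaling by total count, and 583 and 339 with DESeq2 size factors. Over the alternatives run, the log2 fold change ranged from -0.75 to -0.63 for HLA-B, from -0.66 to -0.35 for HLA-C, from -0.57 to -0.37 for TAP1, from 0.08 to 0.50 for TAP2, from -0.78 to -0.53 for PSMB8, from -1.52 to -0.98 for PSMB9 and from -1.43 to -0.45 for PSMB10. HLA-E ranged from -0.02 to 0.10 and B2M from -0.14 to 0.01, so neither has a direction that holds. Leaving out library 1 of a group cannot move the ratios, which come from library 2, and leaving out library 2 puts in reads that it contains. Over these settings they ranged from -0.91 to -0.74 for PSMB8 to PSMB5, from -1.52 to -1.24 for PSMB9 to PSMB6 and from -1.19 to -0.90 for PSMB10 to PSMB7. The disjoint read sets spread more widely for the last 2 ratios, from -1.56 to -0.95 and from -1.61 to -0.75, and all were below 0. No paired analysis was possible because the result comes from no test and the libraries of a group were counted as 1 sample. Depth limits PSMB10, PSMB9, TAPBPL and MR1, which rest on 24 to 317 counts a library.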

Other observations

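Several interferon-induced genes outside the class I pathway had reads in the NC libraries and none in the FGF2 libraries. BST2, which encodes tetherin, a membrane protein that holds back budding viruses, had 15 and 30 counts in the NC libraries and 0 in both FGF2 libraries. Against a floor of 3 counts per library, it was 9.55-fold lower in FGF2 library 2 (log2 interval up to -2.87). Such a fold leaves out counting error in the group with reads, so it is not a lower bound. GBP2, a guanylate-binding protein, had 11 and 22 counts against 0 and was 7.01-fold lower by the same floor (log2 interval up to -2.39). IFI44L had 8 and 16 counts against 0 and was 5.09-fold lower by that floor (log2 interval up to -1.88). IFNE, which encodes an interferon of epithelia, had 5 and 10 counts in the FGF2 libraries and 0 in both NC libraries. It was 3.49-fold higher by that floor (log2 interval from 1.23). All 4 genes were under the count minimum and were chosen for being at 0 in 1 group, so no share of them was set against a background. GBP1 and GBP3, of one family, stood in opposite directions in the same libraries, at log2 fold changes of -1.63 and 1.02, with GBP3 at 134 and 266 counts against 90 and 137.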
